A study of Homo sapiens with 16 samples.

Results

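SAMD9 and SAMD9L are paralogous genes that lie next to each other on chromosome 7, and they were followed here in all 16 libraries as 2 of the 35993 gene symbols in a count table of bladder cancer cells. Their rows were found by symbol, and the pair was chosen by the fall of SAMD9L in TCCSUP cells, where its RNA was among those that dropped most. The values of both genes in TCCSUP are therefore given as a description, without a test. The libraries came from 253J, J82, RT112 and TCCSUP, 4 human bladder cancer cell lines labelled wild type. Cells of each line received CM-1758, an inhibitor of histone deacetylases, or, by the labels, the vehicle DMSO for 48 h, and 2 independent experiments per cell line and treatment were sequenced as total RNA. The dose was the IC50 of each line, so that doses differed between the lines, and TCCSUP was grown in EMEM while the other lines were grown in DMEM GlutaMAX. Library totals ranged from 22506431 to 32537104 counts. All p-values measure the spread between experiments on single cell lines.

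Both genes encode large cytoplasmic proteins with a sterile alpha motif domain near the N terminus. Interferon raises their transcription, and the proteins restrict poxviruses and lower protein synthesis when they are active. Inherited variants that make either protein overactive cause bone marrow failure, and cells that lose the altered copy grow better. A histone deacetylase inhibitor keeps acetyl groups on histones and other proteins, and transcripts move in both directions under such drugs.

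The bases before each gene's start were compared for short runs that the pair shares, and whether such runs control either gene was not tested. They are given 5′ to 3′ on the gene's strand from the RefSeq tables of GRCh38.p14, the 250 bases that end at the last base before the annotated start. SAMD9 lies on the minus strand and its window is chr7:93117980-93118229. SAMD9L also lies on the minus strand, with its window at chr7:93148386-93148635. Capitals mark the stretches that belong to a run of 10 bases present in both windows.
SAMD9: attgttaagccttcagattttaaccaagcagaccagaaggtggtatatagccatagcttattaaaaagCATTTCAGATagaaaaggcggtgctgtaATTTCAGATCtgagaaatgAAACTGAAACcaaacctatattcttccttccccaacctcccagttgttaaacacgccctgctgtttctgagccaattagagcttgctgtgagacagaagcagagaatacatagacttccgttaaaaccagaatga
SAMD9L: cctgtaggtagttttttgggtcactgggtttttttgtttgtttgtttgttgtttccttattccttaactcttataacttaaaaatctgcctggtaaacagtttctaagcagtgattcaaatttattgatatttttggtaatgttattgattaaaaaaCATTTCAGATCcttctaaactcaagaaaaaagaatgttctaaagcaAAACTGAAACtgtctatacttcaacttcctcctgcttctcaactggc

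The run AAACTGAAAC starts 135 bases before the start of SAMD9 and 47 bases before that of SAMD9L, and 55 of 35116 promoter windows of 300 bases (0.157%) held it. ATTTCAGATC was in 0.0626% and CATTTCAGAT in 0.094% of the windows. These runs were found after the sequences were seen. The interferon-stimulated response element, the motif through which type I interferon acts on promoters, was searched on both strands as GAAANNGAAA. SAMD9 held it as GAAACTGAAA from 136 to 127 bases before its start, overlapping the shared run. SAMD9L held no match to these letters in its window, and its copy of the run follows an A where that of SAMD9 follows a G. Looser forms of the motif were not searched. Of all windows, 1255 (3.57%) held GAAANNGAAA, against 18 of the 28 windows (64.3%) found for a list of 33 other interferon-induced genes. The STAT dimer motif TTCNNNGAA was in neither window of the pair and in 7.66% of all windows.

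Few stretches of the transcripts are identical. In GENCODE v29 the SAMD9 transcript has 6852 bases in 3 exons and the SAMD9L transcript 7134 bases in 5 exons, and in each the whole coding sequence, of 4767 and 4752 bases, lies in 1 exon. The coding sequences were 72.5% identical over 4696 aligned bases, with a longest shared run of 32 bases. No stretch of 50 or 100 bases of one transcript occurred exactly in the other (0 of 6803 and 0 of 6753 stretches of SAMD9), and 11 of its 6828 stretches of 25 bases (0.161%) did. GENCODE v29 has no gene that overlaps either of them.

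SAMD9 RNA was abundant in 3 of the 4 lines before treatment. Levels are CPM, counts divided by the TMM-scaled library size, with the SD of 2 libraries. SAMD9 was at 658 and 678 CPM in the control libraries of J82, at 360 and 429 CPM in RT112, at 276 and 206 CPM in TCCSUP, and at 27.6 and 25.9 CPM in 253J. No 2 lines overlapped, and the share of all genes for which this holds was not counted. In J82 control cells 99.2% of the 21297 genes tested had a lower mean CPM than SAMD9, and in 253J control cells 69.2% did. The control level was 1.69-fold higher in J82 than in RT112 (log2 difference 0.76 ± 0.23 SE, adjusted p = 0.0107) and 14.7-fold lower in 253J than in RT112 (-3.88 ± 0.26, adjusted p = 5.08e-09), by the quasi-likelihood test of edgeR with Benjamini-Hochberg adjustment over all genes tested. Without the first control library of RT112 the difference between J82 and RT112 was 0.64 (adjusted p = 0.0946). Between the control cells of J82 and RT112 52.1% of all genes passed an adjusted p of 0.05, and between 253J and RT112 54.3%.

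SAMD9L was the lower gene of the pair in every library. Its control libraries were at 317 and 224 CPM in J82, at 129 and 90.7 CPM in TCCSUP, at 56.1 and 59.2 CPM in RT112, and at 2.79 and 2.3 CPM in 253J. These values came from 8331 and 6159 counts in J82 but only from 77 and 60 counts in 253J. The lines did not overlap here either, and the share of all genes for which this holds was again not counted. TCCSUP stood above RT112, the reverse of their order for SAMD9. Control SAMD9L was 4.69-fold higher in J82 than in RT112 (log2 difference 2.23 ± 0.41 SE, edgeR adjusted p = 0.000286) and 22.6-fold lower in 253J than in RT112 (-4.50 ± 0.49, adjusted p = 1.55e-06). From J82 to 253J SAMD9L was 106-fold lower (adjusted p = 4.31e-08) and SAMD9 24.9-fold lower (adjusted p = 1.25e-09), in a comparison in which 53.1% of all genes passed. Per kilobase of transcript, the mean control level was 97.5 CPM for SAMD9 and 37.9 CPM for SAMD9L in J82, and 3.91 and 0.357 CPM in 253J.

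**Figure D1:**
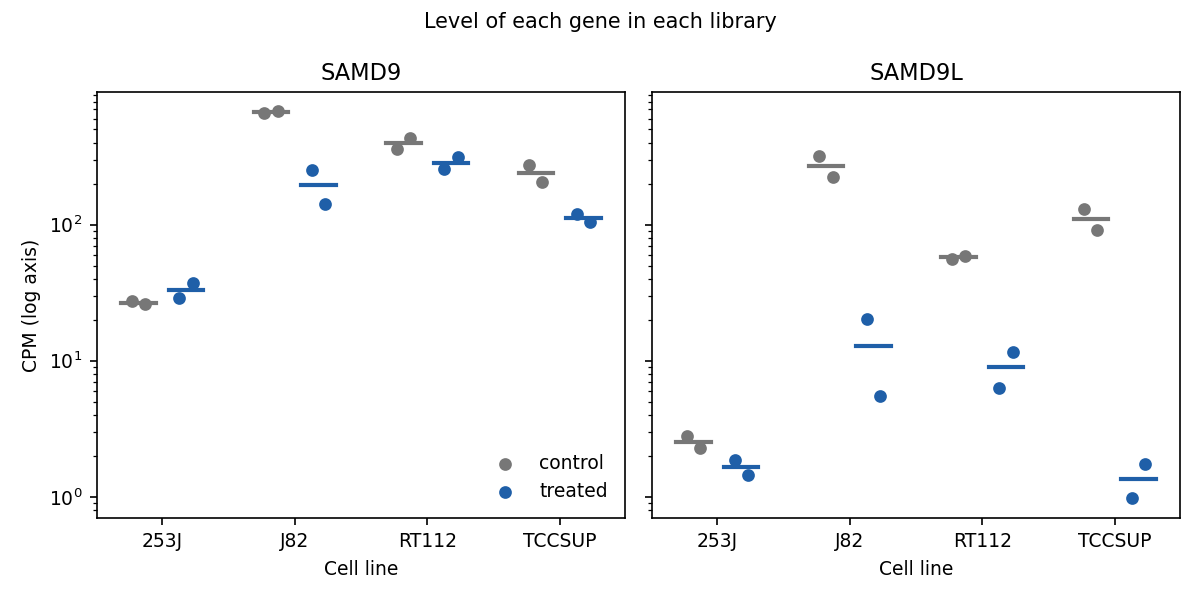
Level of SAMD9 (left) and SAMD9L (right) in CPM on a log axis, for the 4 cell lines. Points are libraries, grey for DMSO and blue for CM-1758, and short lines are the means of 2 libraries. SAMD9L in treated TCCSUP cells, at 0.973 and 1.73 CPM, has the lowest mean, and its control libraries stand at 129 and 90.7 CPM.

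CM-1758 lowered SAMD9L strongly in 2 of the 3 lines that were tested, J82 and RT112, and lowered SAMD9 in J82. Neither gene passed the test in 253J. In J82 SAMD9L went from 317 and 224 CPM to 20.2 and 5.52 CPM, or from 270 ± 65.5 to 12.9 ± 10.4 CPM (SD, n = 2). Both treated libraries were far below both controls, and the treated libraries themselves stood apart, at 565 and 163 counts. The fall was 21-fold (log2 fold change -4.39 ± 0.46 SE, edgeR adjusted p = 3.19e-06), and 0.376% of the genes tested fell further. It was -5.53 without the treated library of 565 counts (replicate 1) and -3.74 without the other (replicate 3). In RT112 the same gene went from 56.1 and 59.2 CPM to 6.34 and 11.6 CPM, from 1715 and 1746 counts to 162 and 303. The groups did not overlap, and the fall was 6.43-fold (-2.69 ± 0.44, adjusted p = 0.000151). Leaving out 1 library moved it between -3.19, without treated replicate 2, and -2.32, without treated replicate 1.

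SAMD9L was called lower, with a log2 fold change below -2 and an adjusted p under 0.01, in J82, where 1.24% of all genes were, and in RT112, where 1.39% were. At an adjusted p under 0.05 alone, 18.5% of the genes were lower in J82 and 20.2% in RT112, and 24% and 27.4% were higher. The median log2 fold change of all genes was 0.05 in J82 and 0.12 in RT112.

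SAMD9 responded less. In J82 it went from 658 and 678 CPM to 250 and 142 CPM, a 3.41-fold fall (log2 fold change -1.77 ± 0.23 SE, edgeR adjusted p = 2.79e-05) that did not reach the size set for a call. In RT112 it went from 360 and 429 CPM to 257 and 312 CPM. The treated libraries of RT112 were below its controls, yet the difference did not pass the test (-0.47 ± 0.23, adjusted p = 0.101), although it did with RT112 fitted alone (adjusted p = 0.0171) and by DESeq2 on RT112 alone (0.00136). Treated SAMD9 was still high in both lines, with 95.9% of the genes tested below it in J82 and 98.1% in RT112, while treated SAMD9L had 56.6% and 51.7% below it. Both treated libraries were below both controls for 27.9% of all genes in J82 and for 32.8% in RT112.

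The 253J line, which had little of either RNA, showed no change that passed the test. SAMD9 was at 27.6 and 25.9 CPM in control and 28.8 and 37.1 CPM in treated libraries (log2 fold change 0.30 ± 0.23 SE, edgeR adjusted p = 0.308). SAMD9L was at 2.79 and 2.3 CPM in control and 1.86 and 1.45 CPM in treated libraries (-0.63 ± 0.57, adjusted p = 0.387), from 47 and 43 counts after treatment. Its treated libraries were below its controls, as they were for 38.1% of all genes in this line, and the standard error of 0.57 is wider than in the lines with more SAMD9L. In 253J 22.4% of all genes were lower and 28.8% higher at an adjusted p under 0.05, and 3.5% were called lower. The split of 4781 lower to 6134 higher genes became 3570 to 7752 with library size alone as scaling.

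In TCCSUP, whose values chose the pair, SAMD9L went from 129 and 90.7 CPM to 0.973 and 1.73 CPM, that is from 3254 and 2368 counts to 26 and 44. The fitted change was 81.2-fold (log2 fold change -6.34 ± 0.54 SE), the 26th lowest of the 21297 genes. SAMD9 went from 276 and 206 CPM to 119 and 105 CPM, a 2.15-fold change (-1.11 ± 0.23). No treated library overlapped a control for either gene, as was the case in this direction for 33.1% of all genes. In TCCSUP 22.1% of all genes were lower and 32% higher at an adjusted p under 0.05, and 3.31% were called lower. The split of 4710 lower to 6808 higher genes became 3137 to 8898 with library size alone. These shares are background only, since this contrast chose the pair, and the same holds for the counts of other genes in TCCSUP given further on.

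**Figure D2:**
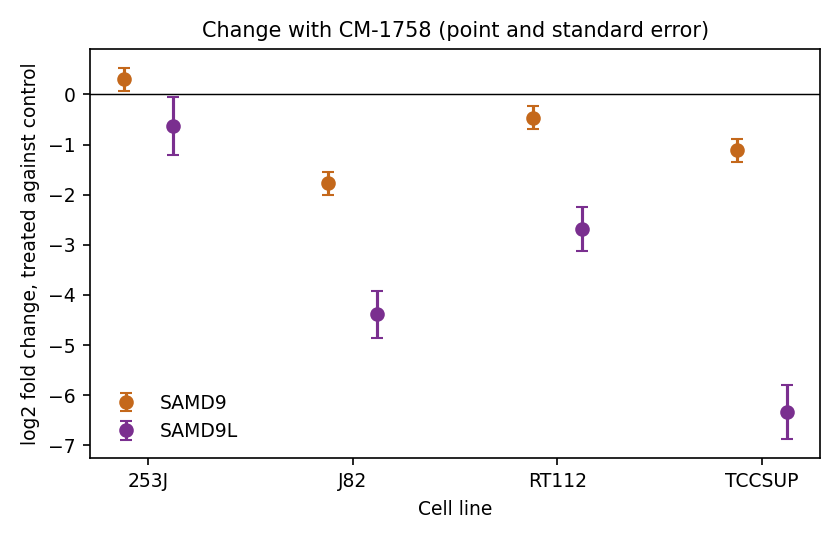
Log2 fold change of SAMD9 (orange) and SAMD9L (purple) in treated against control cells of each line, with the standard error of the edgeR fit as bars. SAMD9L is below SAMD9 in each line, from -0.63 in 253J to -6.34 in TCCSUP, and the TCCSUP points are a description.

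The size of the response was compared between lines in the same fit, with doses that differed between them. SAMD9L fell more in J82 than in 253J (difference of log2 fold changes, 253J minus J82, 3.77 ± 0.72 SE, edgeR adjusted p = 0.00108). The differences of RT112 from 253J (2.06 ± 0.72, adjusted p = 0.0417) and of J82 from RT112 (-1.71 ± 0.59, adjusted p = 0.0491) passed narrowly. The first lost the threshold without either control library of 253J (2.21 without replicate 2 and 1.93 without replicate 3), either treated library of 253J (1.88 without replicate 1 and 2.24 without replicate 3), either control library of RT112 (2.10 without replicate 1 and 2.02 without replicate 2) or treated replicate 1 of RT112 (1.69). The second lost it without control replicate 1 (-1.44) or treated replicate 3 (-1.05) of J82, without either control library of RT112 (-1.67 without replicate 1 and -1.75 without replicate 2) or without its treated replicate 2 (-1.21). DESeq2 with all lines in 1 model gave -1.68 for the second, with an adjusted p of 0.103.

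SAMD9 also fell more in J82 than in 253J (2.07 ± 0.33 SE, edgeR adjusted p = 0.000235) and more in J82 than in RT112 (-1.30 ± 0.32, adjusted p = 0.009). Its responses in 253J and RT112 differed by 0.77 ± 0.33 (adjusted p = 0.0902). Of all genes, 30% differed between the responses of 253J and J82, 30% between 253J and RT112 and 22.2% between J82 and RT112.

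After treatment the lines stood in another order. SAMD9 was highest in RT112, at 284 ± 39 CPM (SD, n = 2), then in J82 at 196 ± 76.7, in TCCSUP at 112 ± 9.53 and in 253J at 32.9 ± 5.91. J82 and RT112 differed by -0.54 ± 0.23 on the log2 scale (edgeR adjusted p = 0.0577), and the call turned on 1 library, since without treated replicate 1 of J82 the difference was -1.01 (adjusted p = 0.00161). SAMD9L was at 12.9 ± 10.4 CPM in J82, at 8.95 ± 3.69 in RT112, at 1.66 ± 0.29 in 253J and at 1.35 ± 0.536 in TCCSUP. Treated J82 and RT112 libraries overlapped for SAMD9L (0.52 ± 0.43, adjusted p = 0.327), and the difference turned to -0.70 without treated replicate 1 of J82 and reached 1.18 (adjusted p = 0.00724) without replicate 3. Treated TCCSUP and 253J libraries overlapped as well, with 0.973 and 1.73 CPM against 1.86 and 1.45 CPM. Treated 253J was still below treated RT112 for SAMD9 (-3.11 ± 0.25, adjusted p = 6.7e-08) and SAMD9L (-2.44 ± 0.52, adjusted p = 0.000911), and below treated J82 for SAMD9 (-2.57 ± 0.24, adjusted p = 4.97e-07) and SAMD9L (-2.96 ± 0.51, adjusted p = 0.000183). Among all genes, 58% passed between treated 253J and RT112, 54.3% between 253J and J82, and 54.2% between J82 and RT112.

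The ratio of both genes within a library needs no scaling, and it shows that the paralogs changed unequally. In control libraries there were 48.1 and 33 SAMD9L counts per 100 SAMD9 counts in J82, 15.6 and 13.8 in RT112, 10.1 and 8.86 in 253J and 46.7 and 44 in TCCSUP. After treatment there were 8.09 and 3.9 in J82, 2.47 and 3.7 in RT112, 6.47 and 3.91 in 253J and 0.82 and 1.65 in TCCSUP. Each treated library was below each control library of its line. The log2 ratio changed by -2.82 in J82, -2.27 in RT112 and -0.91 in 253J, and by -5.26 in TCCSUP, where it was not tested. Over the 12 libraries of 253J, J82 and RT112 the mean change was -2.0 (exact permutation test within lines, 2-sided, p = 0.00926, the smallest that 216 arrangements allow).

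**Figure D3:**
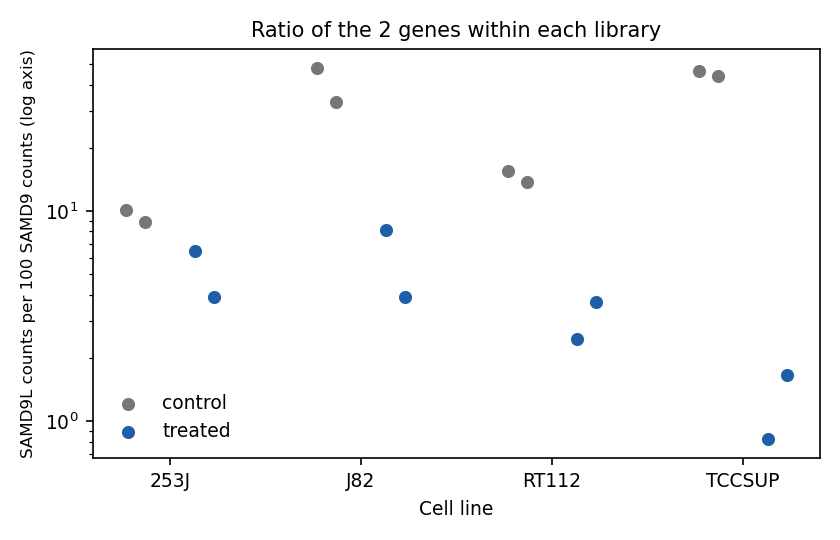
SAMD9L counts per 100 SAMD9 counts in each library, on a log axis, with control in grey and treated in blue. Control libraries lie between 8.86 and 48.1 and treated libraries between 0.82 and 8.09.

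The interferon pathway around the pair was read from lists of genes ordered by role. Of 21 interferon genes, the ligands, only IFNB1 and IFNE had enough counts to be tested. IFNB1, a type I interferon, fell in J82 from 47 and 15 counts to 6 and 8 (log2 fold change -2.24 ± 0.76 SE, edgeR adjusted p = 0.0306). In TCCSUP it had 3 and 2 counts in control and 0 and 0 in treated libraries, and in 253J and RT112 no library exceeded 7. IFNE, an interferon of epithelia, fell in 253J (-1.38, adjusted p = 0.00444).

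Of the 15 receptor and signalling genes, 6 fell and 1 rose in J82, 1 fell and 5 rose in RT112, 5 fell and 4 rose in 253J, and 8 fell and 1 rose in TCCSUP (4 and 3 with library size alone), at an adjusted p under 0.05. Of all genes, 18.5% were lower and 24% higher in J82, and 20.2% and 27.4% in RT112. The shares were 22.4% and 28.8% in 253J, and 22.1% and 32% in TCCSUP. The 4 that rose in 253J and the 5 that rose in RT112 are near these shares. With library size alone, 3137 of the 21297 genes were lower and 8898 higher in TCCSUP. STAT2, a transcription factor that type I interferon activates, was at -1.85 on the log2 scale in J82, 0.82 in RT112, 1.12 in 253J and -0.72 in TCCSUP, with adjusted p-values of 7.27e-07, 7e-04 and 3.78e-05 in the 3 lines tested. IRF9, the DNA-binding partner of STAT2, was at -2.72 in J82 and -2.16 in TCCSUP, and at 0.71 in RT112 and 1.02 in 253J, with an adjusted p of at most 0.0126 in the lines tested. RT112 had more STAT2 and IRF9 RNA and less SAMD9L RNA after treatment, and a relation between them was not tested.

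In J82 the lowest changes of this list were those of IRF7 (-3.03) and IRF9, and the highest were those of IFNLR1, a receptor chain for lambda interferons (1.50, edgeR adjusted p = 0.00443), and IFNAR2, a receptor chain for type I interferons (0.37, adjusted p = 0.19). IRF7, which amplifies interferon production, had 0 counts in all 4 RT112 libraries.

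Of 6 inhibitors of interferon signalling, 3 fell and 2 rose in J82, 1 fell and 3 rose in RT112, 2 fell and 3 rose in 253J, and 2 fell and 2 rose in TCCSUP. Of all genes, 18.5% were lower and 24% higher in J82, and 20.2% and 27.4% in RT112. The shares were 22.4% and 28.8% in 253J, and 22.1% and 32% in TCCSUP. USP18, itself induced by interferon, fell in J82 (log2 fold change -3.58, edgeR adjusted p = 1.02e-07), RT112 (-0.78, adjusted p = 0.0284), 253J (-0.96, adjusted p = 0.00519), and was at -1.49 in TCCSUP. SOCS1 fell in J82 (-1.45, adjusted p = 0.0234) but rose in RT112 (2.42, adjusted p = 0.00102). The highest changes in J82 were those of PIAS1 (1.07, adjusted p = 3.6e-05) and SOCS3 (0.67, adjusted p = 0.00698), and both passed the test as higher in the other lines too.

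The antiviral proteins that act on RNA or translation, the group closest to the pair in function, fell in most cases in J82 and TCCSUP, beside 18.5% and 22.1% of all genes. Of 18 genes, 15 fell and 0 rose in J82 (median log2 fold change -1.91), and 13 fell and 2 rose in TCCSUP (-1.63). In 253J 11 fell and 3 rose (-0.60), and in RT112 4 fell and 2 rose (-0.19), where 22.4% and 20.2% of all genes were lower, beside medians of all genes of 0.05, 0.20, 0.10 and 0.12 in the order J82, TCCSUP, 253J and RT112. With library size alone the split in RT112 turned to 3 lower and 4 higher. OAS2, a sensor of double-stranded RNA, went from 9791 and 7559 counts to 504 and 101 in J82 (-4.92, edgeR adjusted p = 2.62e-06). IFIT3, of a family that binds viral RNA, had a log2 fold change of -4.66 there (adjusted p = 1.13e-05). OAS2 and IFIT3 were the 2 genes of the list that fell further than SAMD9L in J82. In RT112 OAS2 was close to SAMD9L, at -2.61 ± 0.84 SE from 64 and 58 counts to 10 and 7, against -2.69 ± 0.44. There 0 of the 18 had a lower fold change than SAMD9L, and in 253J 8 did. In TCCSUP 0 did, where SAMD9L was chosen for its fall.

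SLFN11, which blocks protein synthesis by cutting transfer RNA, was among the genes of this list with the highest log2 fold change in J82 (0.13, edgeR adjusted p = 0.508). SLFN11 had 4485 and 4567 counts in J82 controls. In RT112 it went from 0 and 0 counts to 129 and 140, at least 52-fold higher with a floor of 3 counts per library, and in 253J from 0 and 0 to 42 and 54, at least 15.6-fold higher. In TCCSUP it went from 63 and 60 counts to 1077 and 799.

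Among 33 other interferon-induced genes, all 33 fell in J82 and 32 fell in TCCSUP, with medians of -2.66 and -2.30. Of all genes, 18.5% were lower in J82 and 22.1% in TCCSUP, with medians of 0.05 and 0.2. In RT112 9 fell and 10 rose (median 0.09), and in 253J 12 fell and 5 rose, or 7 and 7 with library size alone. The RT112 counts are close to the 20.2% of all genes that were lower and the 27.4% that were higher, and 22.4% and 28.8% were in 253J. The 253J median was -0.02 over the fitted values of all 33, and -0.34 over 28 genes with 2 at the bound that 3 counts allow and 5 at or near that floor left out. In J82 the genes that fell most were MX2 (-4.79, edgeR adjusted p = 2.29e-05) and MX1 (-4.61, adjusted p = 4.03e-06), which block incoming viruses, and those that fell least were LGALS3BP (-1.41, adjusted p = 0.000148) and HERC5 (-1.48, adjusted p = 2.83e-05). SAMD9L, with -4.39 in J82, lay near the low end of this list, where 3 of the 33 were lower, and SAMD9, with -1.77, near its high end, where 27 were lower. In 253J 12 of the 33 had a lower fold change than SAMD9L.

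In RT112 the genes of that list with a lower fold change than SAMD9L were IFI44 (-3.13, edgeR adjusted p = 7.68e-05) and TRIM22 (-2.96, adjusted p = 9.69e-05), named after their values were seen. IFI44L and RTP4 had 3 or fewer counts in each treated RT112 library, and their bounds of -2.06 and -2.42 do not place them above or below SAMD9L. IFI44 had 78 and 67 counts in control libraries and TRIM22 314 and 203, against 1715 and 1746 for SAMD9L.

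**Figure D4:**
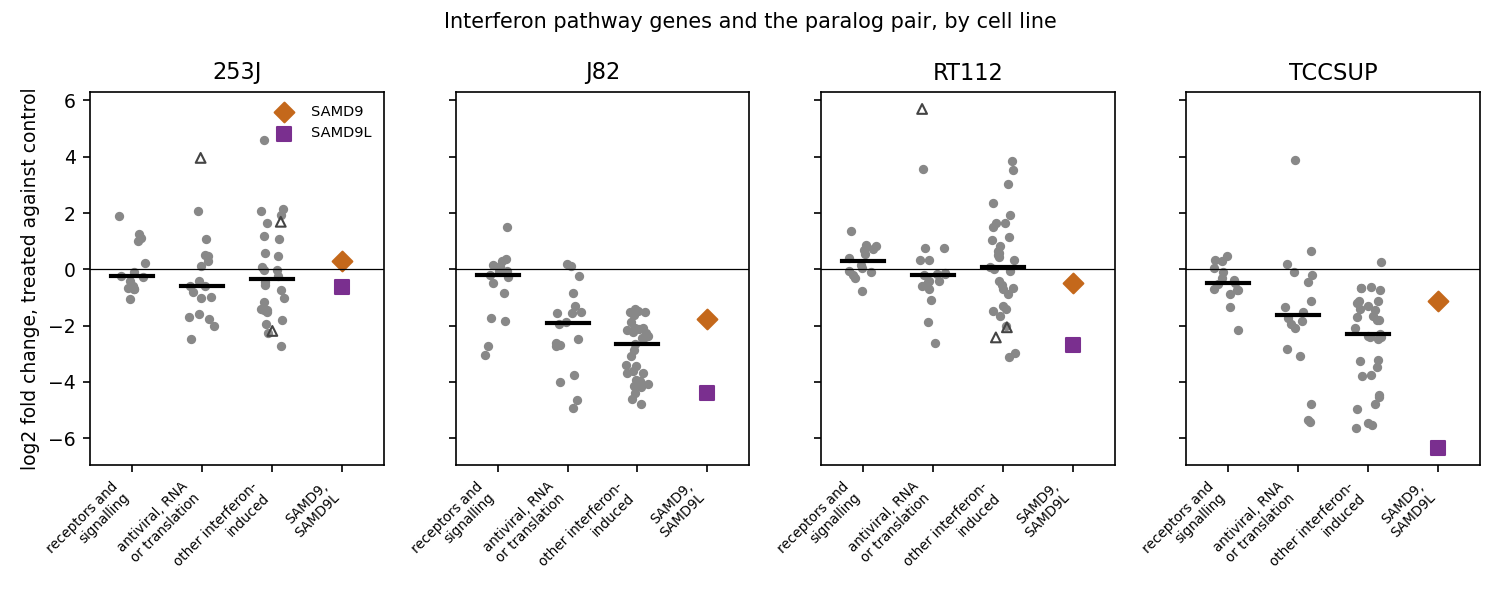
Log2 fold change of interferon pathway genes (grey points), SAMD9 (orange diamond) and SAMD9L (purple square) in each cell line, with black lines at the median of each list. Open triangles are bounds for genes with at most 3 counts in each library of one group. All 33 other interferon-induced genes lie below 0 in J82, and in RT112 they spread on both sides of it.

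The neighbouring genes on chromosome 7 moved in both directions. Of 14 listed neighbours, 2 fell and 5 rose in J82, 3 fell and 1 rose in RT112, 1 fell and 8 rose in 253J, and 4 fell and 4 rose in TCCSUP. With library size alone the split in RT112 turned to 1 lower and 2 higher. Among all genes 18.5% were lower and 24% higher in J82, and 20.2% and 27.4% in RT112. In 253J the shares were 22.4% and 28.8%, and in TCCSUP 22.1% and 32%. The neighbours that fell in J82 and RT112 are near these shares. Those that rose in 253J are above the share there, and those that rose in RT112 below it. CDK6, a cell cycle kinase whose gene lies beside SAMD9, had 4604 and 6310 control and 6364 and 6302 treated counts in J82 (log2 fold change 0.13, edgeR adjusted p = 0.53). It was at 0.00 in RT112 (adjusted p = 1) and fell in 253J (-0.51, adjusted p = 0.00916), with -0.86 in TCCSUP. HEPACAM2, on the other side of SAMD9L, had 0 counts in the control libraries of 253J, J82 and TCCSUP. In RT112 it went from 23 and 14 counts to 5 and 0 (-2.61, adjusted p = 0.0655), a value close to that of SAMD9L there that did not pass the test. VPS50, a trafficking gene beyond it, was at 0.22 in J82 and 0.12 in RT112 (adjusted p = 0.284 and 0.574).

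TFPI2, a protease inhibitor, and CALCR, the calcitonin receptor, had the highest changes of the neighbours in J82, at 3.80 (edgeR adjusted p = 8.52e-09) and 3.43 (adjusted p = 0.000363). TFPI2 was higher in the other lines too, by 1.35 in RT112, 2.30 in 253J and 3.08 in TCCSUP. The lowest in J82 were COL1A2, a collagen chain (-0.87, adjusted p = 0.00549), and FAM133B (-0.34, adjusted p = 0.0411). COL1A2 went from 127813 and 139687 counts to 7289 and 6095 in TCCSUP (-4.34).

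The levels of the pair across all 16 libraries were correlated with each other at a Pearson r of 0.819 (Spearman rho 0.818) on log2 CPM, a description over libraries that share cell lines and treatments. By that measure SAMD9L was 431st among the genes most like SAMD9, and SAMD9 260th among those most like SAMD9L. Among the 5 genes most like SAMD9 were RIT1 (r = 0.967), PLCB3 (0.959), CHD6 (0.954) and INTS6 (0.954). The 5 most like SAMD9L were NAXD (0.947), SENP1 (0.941), SPAG5 (0.941), SMG5 (0.932) and ADAR (0.932), of which ADAR, an enzyme that edits double-stranded RNA, is on the antiviral list. These names depended on the libraries used and on the measure. Without TCCSUP only INTS6 remained of the first 5 and NAXD of the second. By Spearman rho 0 remained of the first 5 and 2 of the second. By Pearson r over the 8 group means 3 and 1 remained.

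The lymphocyte markers CD3E, MS4A1 and NKG7, which define T, B and natural killer cells, were at 0 counts in the control libraries of each line. Other genes of that list were not: PTPRC, a phosphatase of blood cells, went from 218 and 275 counts to 26 and 32 in TCCSUP, where SAMD9L also dropped, and from 2 and 3 to 25 and 28 in J82. CD14 had 296 and 272 counts in TCCSUP controls and CD74 4031 and 4206 in 253J controls. The summed level of 8 leukocyte markers was 4.51 to 8.51 CPM in J82 controls and 6.97 to 10.3 after treatment, 0.0654 to 0.508 and 4.31 to 4.89 CPM in RT112, 148 to 163 and 165 to 183 CPM in 253J, and 22.2 to 23.5 and 11.9 to 12.2 CPM in TCCSUP. Of 16 urothelial and epithelial markers, 15 exceeded 3 counts in a control library of RT112, 12 in TCCSUP, 10 in 253J and 9 in J82, with UPK3A at 0 in the controls of each line. Their summed level moved from 8240 to 8640 CPM in control to 6310 to 7090 in treated RT112 cells and from 5970 to 8100 to 6970 to 7890 CPM in J82. It moved from 3190 to 4340 to 1880 to 2370 CPM in 253J and from 1340 to 1460 to 519 to 602 CPM in TCCSUP, and the part of either marker list in the changes of the pair was not tested. In bulk RNA, fewer cells with the transcript and less of it per cell cannot be told apart.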

How the data were processed

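Total RNA of 16 cultures was sequenced by a service provider from stranded, ribosomal RNA depleted libraries. The authors deposited raw counts, whole reads per gene symbol, with no normalization. The submitters' processing notes name HISAT2, StringTie and GRCh37, without versions, and the strand setting of the counting is not given in the sources used here. Groups followed the labels. Genes were filtered with filterByExpr over 8 groups (21297 of 35993 left), scaled by TMM and tested by quasi-likelihood F tests (edgeR 4.0.16, R 4.3.3) in 1 group-means fit of all 16 libraries (8 residual degrees of freedom). Each contrast was adjusted by Benjamini-Hochberg over all genes tested, and the standard error is the log2 fold change over the square root of F. A gene was called at a log2 fold change beyond 2 and an adjusted p under 0.01. DESeq2 1.42.0 and other settings were alternatives. Likeness used log2 CPM with a prior count of 2. The ratio had 0.5 added to each count. Replicates correlated at 0.983 to 0.991 and differed by more than sampling noise (chi-square per degree of freedom 11.7 to 73.1). In data simulated on J82, all 200 genes changed 4-fold were recovered among 21297, with 9 others. They were drawn from genes well counted in every library, all genes had the same spread, and no other gene was changed. Recovery of genes with few counts or a wider spread was therefore not measured. Members, lists and rules (in each list the 2 largest and 2 smallest changes in J82, and the 5 most correlated genes) were chosen with earlier results of these data known. Transcripts came from GENCODE v29 and promoters from RefSeq on GRCh38.p14, another build than that of the counts. Some genes that these rules name are not reported here.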

Additional observations from a re-analysis of the deposited data

Results flagged for a closer look

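The responses of the pair differed between cell lines by a test of the difference itself, with doses that differed between the lines. The response of SAMD9 differed between 253J and J82 by 2.07 and between J82 and RT112 by -1.30 on the log2 scale. That of SAMD9L differed between 253J and J82 by 3.77, between 253J and RT112 by 2.06 and between J82 and RT112 by -1.71. The last 2 each lost the threshold when any of several single libraries was left out. No group had enough libraries for a test of single outlying values.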

How the results depend on the processing

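Of 198 values of the pair under other settings, all 198 had the direction given above and 184 counted as unchanged. With 1 library left out, 127 and 112 of 128 did. A tested value counted as unchanged if it kept its side of the threshold. The untested TCCSUP responses are among these values and had no threshold. They counted as unchanged if they moved by less than the SD between libraries, so they add no support from a test. The treated SAMD9 difference between J82 and RT112 passed with RLE factors (-0.59), library size alone (-0.77), DESeq2 (-0.57) and at least 10 counts in every library (-0.63). The SAMD9L response difference between J82 and RT112 missed the threshold with RLE factors (-1.70), library size alone (-1.70) and DESeq2 (-1.68), and the control SAMD9 difference of these lines missed it with library size alone (0.52). Library size alone moved the median of all genes by 0.15 to 0.31 on the log2 scale. SAMD9 in RT112 passed with each line fitted alone by edgeR (-0.47) or DESeq2 (-0.48).

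With a library left out, the SAMD9L response difference ranged from 1.69 to 2.56 between 253J and RT112 and from -2.88 to -1.05 between J82 and RT112. The J82 to RT112 difference ranged from 0.64 to 0.89 for control SAMD9, from -1.01 to -0.18 for treated SAMD9 and from -0.70 to 1.18 for treated SAMD9L. The mean change of the ratio ranged from -2.18 to -1.83.

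Too few libraries per line were at hand to settle whether replicate numbers pair them. Deviations of same-numbered libraries had correlations of 0.218 (J82), 0.0427 (RT112) and 0.0173 (TCCSUP), and 253J shares only 1 number. With the replicate block, SAMD9 in RT112 (-0.47), the SAMD9 response difference between 253J and RT112 (0.99) and the treated SAMD9L difference between J82 and RT112 (1.10) passed. The SAMD9L response difference between 253J and RT112 (2.07) did not. Blocked by same-numbered pairs, the ratio changed by -2.55 (exact permutation p = 0.125, the smallest that 4 pairs allow). Of 360 list counts, 310 stayed within 1.5 times; library size alone moved the receptor and signalling genes in TCCSUP from 8 lower and 1 higher to 4 and 3, and with at least 10 counts in every library 20 in place of 33 other interferon-induced genes were lower in J82, since fewer genes were tested. The causes of the other moves were not tested. Depth limits the pair mainly for SAMD9L, which had 43 to 77 counts a library in 253J and 26 and 44 in treated TCCSUP.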
